A study of Mus musculus with 24 samples.

Results

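The livers and the hindleg skeletal muscles of newborn control mice were compared gene by gene, using 6 of the 24 arrays of the series. The 3 liver arrays and the 3 muscle arrays came from C57BL/6 pups on day 0 after birth. Their dams had eaten a normal protein diet with 20% casein from day 1 of pregnancy, with no taurine in the drinking water. Both groups shared this maternal diet and differed in tissue. The arrays were chosen by their titles, which name the maternal diet and the tissue. The study as a whole also placed dams on a diet with 8% casein or gave them 1% taurine, and each of its 8 tissue and diet groups held 3 arrays. Total RNA was labelled with biotin and hybridised to Affymetrix mouse arrays. The labels call the arrays of a group biological replicates but do not tie pups to dams or litters. The tests therefore take account of the variation among these arrays alone, part of which may be technical. Whether the arrays of a group stand for separate litters is not known. The labels name no sorting of cells, so every cell type in a sample could contribute RNA.

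At birth the liver is both a metabolic organ and a site of blood cell formation. Hepatocytes secrete most of the proteins of plasma and, with the end of the placental supply, turn to making glucose, urea and bile acids, while red cells, granulocytes, platelet precursors and B cells still mature between them. Skeletal muscle at birth consists of young, innervated fibres that carry embryonic and neonatal forms of the contractile proteins, which are later replaced by adult fast and slow forms. The fibres lie in a matrix made by fibroblasts and are joined to bone by tendon.

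The authors normalized the 2 tissues separately, so a level in liver cannot be set directly against a level in muscle. Each array was therefore converted to ranks. Where a gene had several probe sets, the one that read highest on average in these 6 arrays was taken, and its value was expressed as a percentile among the 18193 genes of that array, 0 being the lowest and 100 the highest. A difference between tissues is given in percentile points, liver minus muscle, with the standard error of the fit. A gene was called when its Benjamini-Hochberg adjusted p in limma was under 0.05. Where values are listed for a tissue, they stand in the order of replicates 1, 2 and 3. A percentile depends on the probe as well as on the transcript, so levels of different genes were not compared, and a gene that is near the top in both tissues can differ by a few points at most.

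Percentiles correlated at 0.987 to 0.992 between arrays of liver, at 0.988 to 0.991 between arrays of muscle and at 0.774 to 0.791 between arrays of different tissues. Replicate 2 of each tissue read as female by the level of Xist, the RNA that silences an X chromosome, and the other 4 arrays read as male. Some arrays stood apart from the others of their tissue. Liver replicate 2 read high for genes of heart muscle, muscle replicates 1 and 3 read high for genes of skin, and muscle replicate 2 read high for 3 genes of bone. The values behind these statements follow the tissue programmes, and the main results that 1 of these arrays moved are given with and without it.

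Of the 18193 genes, 10965 (60.3%) were called, 5547 of them higher in liver (30.5%) and 5418 higher in muscle (29.8%). With the log2 values as deposited, and thus with the separate normalization left in, the calls were split as 10263 higher in liver and 3557 higher in muscle. The median difference over all genes was 0.08 points and the median absolute difference 6.19 points. A difference of at least 20 points together with the call was seen for 3038 genes (16.7%), 1434 higher in liver (7.88%) and 1604 higher in muscle (8.82%). The 3 values of a tissue all lay on one side of the 3 values of the other for 12277 genes (67.5%). The counts for gene lists below are to be read against these shares.

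**Figure D1:**
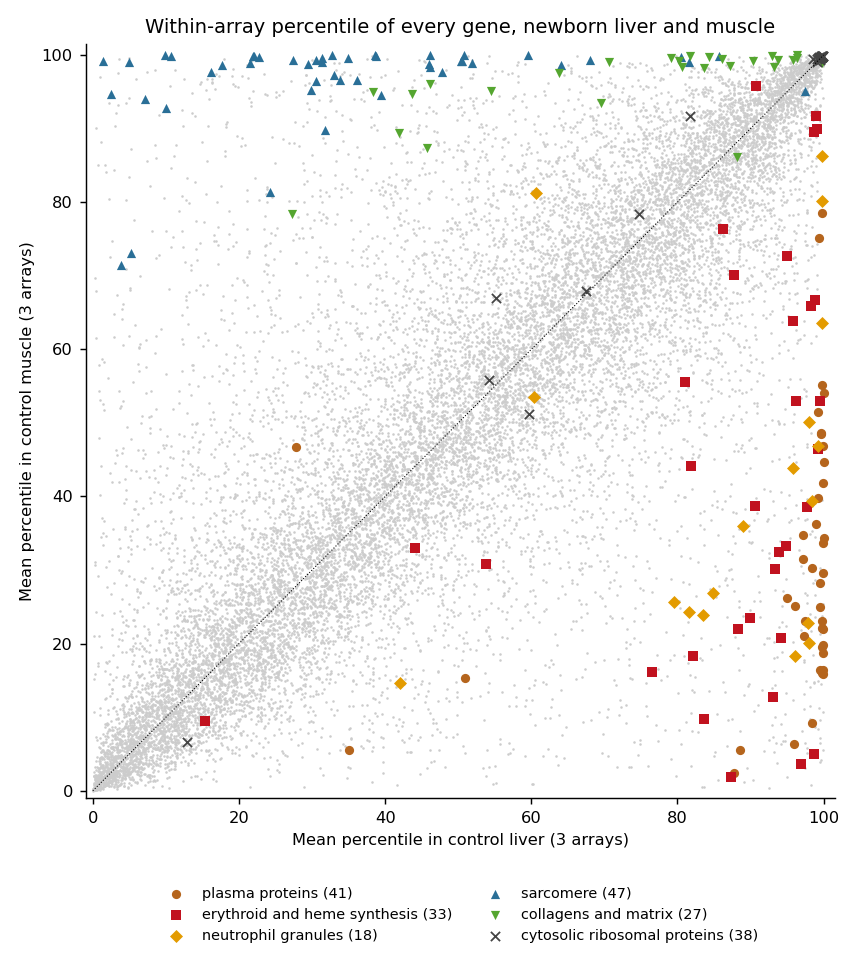
Each grey point is a gene, placed by its mean percentile over the 3 liver arrays (horizontal) and over the 3 muscle arrays (vertical), with members of 6 gene lists in colour and the number of measured members in the key. Plasma protein, erythroid and neutrophil genes lie mostly at the right below the dotted line of equality, sarcomere and collagen genes lie mostly at the top above it, and ribosomal protein genes lie mostly at the top right on the line.

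Genes of the plasma proteins that hepatocytes secrete checked the label of the liver arrays. Of 41 measured plasma protein genes, 40 were higher in liver and 1 was higher in muscle, with a median difference of 68.78 points. Alb, which encodes serum albumin, rounded to percentile 100 in all 3 livers and read 47.4, 50.2 and 64.5 in the muscles, a difference of 45.98 ± 4.09 points (adjusted p = 6.03e-05). Afp, the albumin-related protein of fetal plasma, rounded to 100 in all 3 livers as well and read 30.7, 34.5 and 37.7 in muscle, a difference of 65.66 ± 1.95 points (adjusted p = 2.59e-07). The fetal and the adult carrier protein were thus both at the top of the newborn liver arrays, with no overlap between the tissues.

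The same position was held by lipoprotein, clotting and inhibitor genes. Apoa1 and Apoa2, the main proteins of high density lipoprotein, read at or above 99.9 in every liver and between 32.6 and 48.2 in the muscles. Fga, Fgb and Fgg, the chains of fibrinogen, read at or above 99.9 in liver and between 10.1 and 22.6 in muscle, and the differences were 81.23 ± 2.21, 80.2 ± 1.99 and 84.07 ± 2.77 points. Ttr, Apoh, Ahsg, Kng1, Serpina1b and Serpina1c completed the set with the highest percentiles, along with Igfbp1, which is described with the growth factor genes. Pzp, which encodes a broad protease inhibitor of plasma, rounded to 99.9 in all livers and read 5.5, 7.5 and 3.8 in muscle. Serpina7, which carries thyroid hormone, read 93.5, 93.2 and 90.8 in liver and 0.2, 0.9 and 0.0 in muscle. The genes Apof of lipoproteins and F13b of clot stabilisation differed by 93.06 ± 2.0 and 90.96 ± 1.51 points. The exception among the plasma proteins was Orm1, an acute phase protein, which read 36.5, 26.1 and 20.7 in liver and 40.4, 52.6 and 47.0 in muscle, a difference of -18.89 ± 4.54 points (adjusted p = 0.00911).

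The regulators of the hepatocyte programme differed in the same direction. Of 22 measured transcription factor genes of liver, 20 were higher in liver and 1 in muscle, with a median difference of 39.1 points. Hnf4a, a nuclear receptor needed for hepatocyte identity, read 97.9, 97.9 and 97.5 in liver and 40.4, 39.3 and 39.1 in muscle. Foxa2 and Foxa3, which open chromatin at liver genes, differed by 52.09 ± 2.75 and 66.97 ± 5.71 points, although the liver values of Foxa3 spread from 68.5 to 92.9. Onecut2 was the member with the largest difference, 67.42 ± 4.61 points. Cebpa, which drives hepatocyte maturation, read 96.4, 92.5 and 95.7 in liver and 66.8, 73.9 and 67.1 in muscle. Nr1h4, the bile acid receptor, differed by 60.76 ± 2.19 points. Tbx3 was higher in muscle (-14.49 ± 4.98, adjusted p = 0.0387). The call was lost without liver replicate 2 (-16.1 points, adjusted p = 0.0559) and without muscle replicate 1, 2 or 3 (adjusted p from 0.0734 to 0.109), and without liver replicate 3 the difference was -8.42 points.

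The data bear on the promoters of such genes through the shared direction of their differences. A few are shown so that the letters near the start of genes at the top of the liver arrays can be read. These were picked by hand and all hold both motifs marked below, so they do not show how common a motif is. Shares over many promoters are given after the sequences. The sequences were taken from RefSeq (GRCm38.p6), which had at least 1 promoter for 14452 of the 18193 genes. Each runs from 250 bases before to 50 bases after the annotated start, on the strand of the gene. They are the promoters of Afp (chr5:90490464-90490763, plus strand), of Fabp1, which encodes the fatty acid binding protein of liver (chr6:71199629-71199928, plus strand), and of G6pc, which encodes the enzyme that releases free glucose (chr11:101367466-101367765, plus strand). Capitals mark GTTAAT, a half-site of the hepatocyte factor HNF1, and TATAAA, the core of a TATA box.
Afp: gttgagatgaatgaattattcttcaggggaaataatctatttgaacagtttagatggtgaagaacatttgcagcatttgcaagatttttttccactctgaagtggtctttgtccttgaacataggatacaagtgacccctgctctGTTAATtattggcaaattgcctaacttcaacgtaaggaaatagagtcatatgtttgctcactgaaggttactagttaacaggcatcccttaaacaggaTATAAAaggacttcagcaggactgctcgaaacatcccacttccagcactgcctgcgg
Fabp1: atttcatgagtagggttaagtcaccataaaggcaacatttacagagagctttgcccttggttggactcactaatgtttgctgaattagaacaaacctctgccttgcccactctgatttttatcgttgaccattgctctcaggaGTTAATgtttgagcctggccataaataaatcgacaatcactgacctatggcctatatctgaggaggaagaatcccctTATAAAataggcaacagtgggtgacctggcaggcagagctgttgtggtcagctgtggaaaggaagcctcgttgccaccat
G6pc: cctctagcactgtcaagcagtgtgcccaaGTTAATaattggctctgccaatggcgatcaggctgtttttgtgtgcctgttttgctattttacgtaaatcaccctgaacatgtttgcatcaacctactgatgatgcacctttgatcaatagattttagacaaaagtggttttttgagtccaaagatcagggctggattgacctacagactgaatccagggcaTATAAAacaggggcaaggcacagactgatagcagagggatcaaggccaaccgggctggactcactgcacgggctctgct
In these 3 promoters GTTAAT begins 105, 107 and 221 bases before the annotated start, and TATAAA begins 7, 30 and 29 bases before it. The TATAAA of Afp thus lies closer to that start than the others, and whether it acts as a TATA box was not tested. Fabp1 itself read 99.8, 99.8 and 99.9 in liver and 10.9, 33.7 and 15.7 in muscle. Searched on both strands, GTTAAT was present in 7.1% of all 32851 promoters of the table and in 5.3% of the 18109 promoters of measured genes. It was present in 9.01% of those of genes called at least 20 points higher in liver and in 4.59% of those of genes called at least 20 points higher in muscle. Among the former, the genes above the mean percentile of 95 had it in 17.6% of 193 promoters. The longer motif CAAAGTCCA, a site of HNF4, was rarer and was present in 0.491% of the promoters of measured genes, in 1.76% of those higher in liver and in 0.248% of those higher in muscle. AGATAA, a site of the GATA factors of blood cells and other lineages, was present in 8.09%, 13.2% and 6.76% of these sets. These are matches of letters, with no test. The motifs do not overlap each other in the promoters shown.

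Enzymes of nitrogen disposal were on the liver side. Of 30 measured genes of the urea cycle and amino acid breakdown, 27 were higher in liver and 1 in muscle, with a median difference of 57.33 points. Cps1, which makes carbamoyl phosphate for the urea cycle, read 99.8, 99.9 and 99.8 in liver and 18.2, 16.6 and 15.6 in muscle. Otc, the next enzyme of the cycle, read 79.0, 87.0 and 90.8 in liver and 0.3, 2.7 and 1.2 in muscle, and its liver values were the more spread. Arg1, which releases urea, read at least 99.5 in every liver and at most 18.6 in muscle, a difference of 85.16 ± 2.29 points. Mat1a, which makes the methyl donor S-adenosylmethionine in hepatocytes, differed by 92.33 ± 1.76 points, and Bhmt2, a methyltransferase of the same cycle, by 93.04 ± 1.8 points. Hpd of tyrosine breakdown differed by 84.25 ± 1.39 points.

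Tat, which starts the breakdown of tyrosine, read 95.7, 98.9 and 97.8 in liver and 26.8, 26.8 and 27.0 in muscle. Tdo2, which starts that of tryptophan, read 27.2, 21.6 and 24.6 in liver and 12.5, 11.7 and 17.1 in muscle, a difference of 10.72 ± 2.08 points (adjusted p = 0.00336). Gpt, an alanine aminotransferase, was the member called higher in muscle (-8.6 ± 2.74 points, adjusted p = 0.0291), and 1 of its 2 probe sets had that sign. This call was lost without liver replicate 1 or 3 or without muscle replicate 2 or 3 (adjusted p from 0.0796 to 0.0927).

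Of 15 measured genes of hepatic glucose and glycogen handling, 14 were higher in liver, none was higher in muscle and the median difference was 30.57 points. G6pc read 99.5, 99.6 and 99.6 in liver and 15.4, 6.7 and 6.9 in muscle. Pck1, the enzyme that commits carbon to new glucose, read 98.8, 99.0 and 99.2 in liver and 47.9, 61.0 and 76.4 in muscle, so its muscle values were the more spread. Slc2a2, the glucose transporter of hepatocytes, differed by 88.96 ± 1.47 points, and Gys2, their glycogen synthase, by 85.71 ± 2.24 points. Ppargc1a, a coactivator of fasting metabolism, was the member not called. It read 92.9, 90.3 and 74.0 in liver and 80.4, 61.7 and 88.9 in muscle, and the 2 ranges overlapped.

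Bile acid genes were mostly, though not all, on the liver side. Of 21 measured genes, 16 were higher in liver and 2 in muscle, with a median difference of 34.06 points. Cyp7a1, the rate-limiting enzyme of bile acid synthesis, read 85.7, 96.4 and 96.8 in liver and 16.2, 14.9 and 10.8 in muscle. Cyp8b1, which sets the kind of bile acid made, differed by 66.01 ± 1.92 points. The transporters Slc10a1 and Slco1b2, which take bile acids and other anions up from blood, differed by 86.56 ± 2.59 and 84.08 ± 3.66 points, and Abcb11, which exports bile salts into bile, by 65.36 ± 2.37 points. Slc27a5, which activates bile acids for conjugation, had the largest difference of the list, 87.0 ± 1.76 points. Cyp7b1, the enzyme of an alternative route, was higher in muscle and read 14.1, 16.3 and 14.9 in liver against 45.5, 49.5 and 50.6 in muscle. Fgfr4, the receptor by which the gut hormone FGF15 represses bile acid synthesis, was also higher in muscle (-28.78 ± 2.49 points, adjusted p = 5.24e-05).

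Of 29 measured genes of drug and steroid metabolism, 24 were higher in liver and 3 in muscle, with a median difference of 38.34 points. The cytochrome P450 genes Cyp2d26, Cyp3a11, Cyp3a13 and Cyp3a25 were among the 15 genes with the largest differences in favour of liver, and Cyp3a11 read 99.6, 99.7 and 99.7 in liver and 4.3, 3.2 and 5.0 in muscle. Cyp3a16, a form of the fetal and young liver, read 82.6, 83.6 and 84.8 in liver and 0.0, 1.4 and 0.3 in muscle. Cyp2e1, which oxidises ethanol and ketone bodies, read 95.6, 99.1 and 98.6 in liver. Some other enzymes known from the adult liver had low percentiles, in which probe and RNA level cannot be told apart. Cyp1a2 read 19.8, 17.0 and 22.8 in liver and 20.1, 14.6 and 17.5 in muscle and was not called (2.46 ± 2.04 points, adjusted p = 0.333), and Cyp4f14 read 18.1, 20.2 and 18.1 in liver. Aox1 and Gstm2 were higher in muscle (-32.39 ± 2.11 and -14.62 ± 1.95 points), as was Gsta2 (-6.85 ± 2.01 points) with liver values of 12.3, 17.7 and 13.1. The call for Gsta2 was lost without liver replicate 1 or 3 or without muscle replicate 1 or 3 (adjusted p from 0.0609 to 0.0724). Outside the lists, the gene with the largest liver excess was Hsd17b13, a lipid droplet enzyme, which read 98.9, 97.9 and 98.2 in liver and 1.4, 0.3 and 0.8 in muscle. Aadac, an esterase, and Elovl2, which lengthens polyunsaturated fatty acids, differed by 91.84 ± 1.84 and 94.03 ± 1.47 points.

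Transcripts for fatty acid oxidation read high in both tissues, and most of them differed little. Of 26 measured genes of oxidation and ketone synthesis, 18 were higher in liver and 3 in muscle, but the median difference was 2.784 points, and the median percentiles were 97.12 in liver and 93.79 in muscle. The count for liver fell to 9 with no variance trend in the fit and to 7 when all probe sets of a gene were averaged. Ehhadh and Acaa1b of the peroxisome differed by 60.8 ± 3.32 and 60.6 ± 5.48 points. Bdh1, which makes the ketone body hydroxybutyrate, read 97.6, 97.5 and 98.3 in liver and 25.0, 21.9 and 33.0 in muscle. Oxct1, which lets tissues other than liver burn ketone bodies, was higher in muscle at 96.5, 96.2 and 97.6 against 76.2, 78.2 and 79.8. Cd36, a fatty acid transporter, was also higher in muscle (-10.0 ± 1.61 points, adjusted p = 0.00133). Cpt1a, the liver form of the gatekeeper of fatty acid oxidation, differed by 24.58 ± 3.09 points.

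Of 26 measured genes of lipid and cholesterol synthesis, 17 were higher in liver, none in muscle, and the median difference was 11.1 points. Lss, Dhcr7 and Sqle, all of cholesterol synthesis, differed by 44.77 ± 2.57, 29.43 ± 3.04 and 21.9 ± 3.24 points, and Fads2, a fatty acid desaturase, by 39.82 ± 2.59 points. Fasn, the fatty acid synthase, read 85, 75.6 and 81.9 in liver and 80.3, 87.6 and 89.4 in muscle and was not called (-4.93 ± 3.04 points, adjusted p = 0.2). Liver replicate 2 had the lowest list mean, 84.28 against 89.33 and 90.53, and it read lowest of the livers for each of Lss, Dhcr7, Sqle and Fasn.

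Genes of blood formation were also higher in the newborn liver. In whole tissue, fewer cells of a type and less RNA per cell cannot be told apart. Of 33 measured erythroid and heme synthesis genes, 32 were higher in liver and 1 in muscle, with a median difference of 46.54 points. Gata1 and Klf1, the regulators of red cell formation, read 87.8, 87.3 and 89.7 and 93.0, 93.8 and 94.9 in liver, against 20.5 to 23.7 and 27.3 to 36.3 in muscle. Hemgn, a nuclear protein of red cell precursors, differed by 93.66 ± 1.94 points and Rhag, the ammonia channel of the red cell membrane, by 93.15 ± 2.25 points. Alas2, which begins heme synthesis in red cells, read 98.6, 97.5 and 98.7 in liver and 59.2, 63.3 and 75.3 in muscle. Ank1, which also has a muscle isoform, was called higher in muscle (-5.05 ± 0.82 points, adjusted p = 0.00136), and 2 of its 4 probe sets had that sign.

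Hbb-y, an embryonic beta-type globin, read 85.2, 94.3 and 71.3 in liver and 9.8, 16.3 and 3.1 in muscle, a difference of 73.89 ± 5.94 points. Hba-x, an embryonic alpha-type globin, differed by 22.91 ± 3.57 points and Hbb-bh1, another embryonic form, by 11.11 ± 1.73 points. The probe set assigned to Hba-a1 alone read below 17 in every array. The 4 probe sets assigned to several globin genes together read 99.6 to 100 in liver and 96.0 to 100 in muscle. They were ranked among all probe sets of an array, whereas Hba-a1 was ranked among genes, so the scales differ. Adult globin RNA was therefore near the top of the probe set scale in both tissues and cannot be assigned to single genes. The shared probe set with the lowest values read 99.6, 99.6 and 99.7 in liver and 96.0, 97.4 and 98.8 in muscle, without overlap. Another rounded to 100 in every liver and read 99.7, 99.8 and 99.9 in muscle. The remaining shared probe sets reached 100 in both tissues. The shared probe sets are not among the genes tested.

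White cell and platelet genes followed. Of 18 measured neutrophil granule genes, 16 were higher in liver and 1 in muscle, with a median difference of 52.62 points. Mpo and Elane, granule enzymes of early neutrophil precursors, read at least 97.7 and 95.4 in the livers and at most 24.5 and 21.1 in the muscles. Ngp, of later precursors, read 99.9, 99.6 and 99.7 in liver and 58.5, 72.5 and 59.8 in muscle. Hdc, which makes histamine, was higher in muscle (-20.56 ± 2.81 points, adjusted p = 0.000577). Of 15 measured B cell progenitor genes, 13 were higher in liver and 1 in muscle. Vpreb1 and Igll1, the surrogate light chain of early B cells, differed by 42.89 ± 3.93 and 35.45 ± 1.46 points, Rag1, which cuts immunoglobulin genes, by 49.47 ± 2.2 points, and Pou2af1, a coactivator of immunoglobulin transcription, by 72.68 ± 1.88 points. For Igll1, 1 of 2 probe sets had that sign. Ebf1, a B cell factor that fat cell precursors also use, was higher in muscle at 74.5, 83.1 and 78.2 against 55.4, 52.5 and 54.8. All 11 measured megakaryocyte and platelet genes were higher in liver, from Pf4 at 2.68 ± 0.38 points to Clec1b at 76.02 ± 2.63 points.

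Resident cells of the liver were visible too. Of 17 measured macrophage genes, 15 were higher in liver and 1 in muscle. The members with the largest differences were those of the macrophages of liver and spleen, among them Cd5l (75.53 ± 1.47 points), Marco (62.46 ± 3.67 points) and Clec4f (54.38 ± 2.62 points), whereas Csf1r, the growth factor receptor of all macrophages, differed by 7.61 ± 0.57 points. Cd163, a hemoglobin scavenger receptor, was higher in muscle and read 57.2, 55.1 and 56.3 there against 21.1, 35.7 and 31.0 in liver. Of 9 measured genes of liver sinusoidal endothelium 7 were higher in liver, with Oit3, Clec4g and Stab2, the last a scavenger receptor, at 62.95 ± 3.39, 59.29 ± 3.66 and 54.56 ± 1.62 points. Of 15 measured genes shared by blood vessel endothelium in general, 10 were higher in muscle and 1 in liver, or 2 in liver without liver replicate 2. Pecam1, an adhesion protein of vessels, read 91.5, 91.1 and 85.9 in muscle and 63.8, 68.5 and 64.0 in liver, and Vwf, a clotting protein, read 86.5, 91.6 and 88.1 in liver and 62.7, 65.7 and 65.7 in muscle.

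Of 12 measured genes of stellate cells, the vitamin A storing cells of liver, 9 were higher in liver. Lrat, which esterifies vitamin A, read 47.3, 55.4 and 50.2 in liver and 3.3, 6.1 and 6.1 in muscle. Des and Rgs5, which muscle fibres and vessel walls express, were higher in muscle (-48.36 ± 1.32 and -54.21 ± 3.32 points). Bile duct genes were low in both tissues, and of 9 measured 3 were higher in liver and 1 in muscle. Krt19, a keratin of duct cells, read 55.1, 49.9 and 47.0 in liver and 22.6, 22.2 and 17.4 in muscle, and Epcam, an epithelial adhesion protein, was higher in muscle (-12.17 ± 1.45 points) with 1 of its 2 probe sets giving that sign.

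Of 36 measured cell cycle genes, 33 were higher in liver and none in muscle, with a median difference of 9.731 points and median percentiles of 89.91 and 79.86. Mki67, a protein of dividing cells, read 99.1, 98.5 and 98.9 in liver and 94.3, 93.8 and 93.9 in muscle. Cdc6, which loads the replicative helicase, had the largest difference, 36.24 ± 2.28 points. Cdk1, the kinase of mitosis, was not called and read 89.4, 88.7 and 90.0 in liver and 90.7, 89.6 and 91.0 in muscle.

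**Figure D2:**
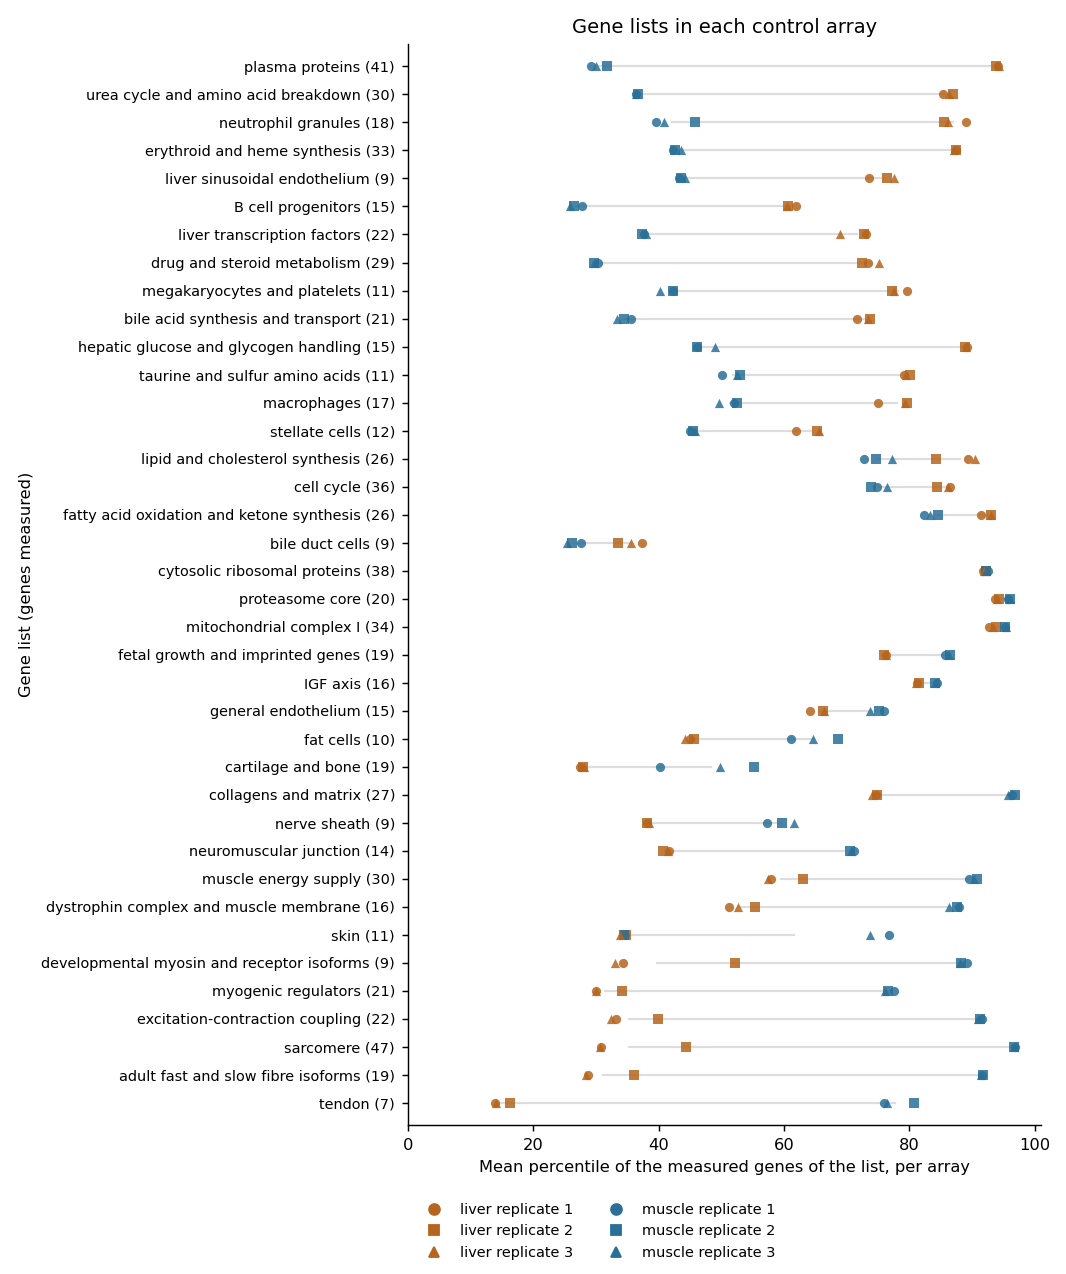
Mean percentile of the measured genes of each of 38 gene lists (number of genes in parentheses) in each of the 6 control arrays, with lists in order of their median difference and grey lines joining the tissue means. Replicates lie close together for most lists, while liver replicate 2 lies to the right of the other livers for sarcomere genes (44.34 against 30.76 and 30.74) and muscle replicate 2 lies among the livers for skin genes (34.49 against 76.71 and 73.7).

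Genes of the sarcomere, the contractile unit, checked the label of the muscle arrays. Of 47 measured sarcomere genes, 45 were higher in muscle and 1 in liver, with a median difference of -64.67 points and median percentiles of 99.0 in muscle and 31.72 in liver. Acta1, the skeletal actin, rounded to 100 in all muscles and read 47.6, 51.6 and 53.2 in liver, a difference of -49.19 ± 1.57 points (adjusted p = 3.49e-07). Mylpf, Tnnc2, Tnni2 and Tnnt3, the light chain and troponins of fast fibres, read at least 99.9 in every muscle and at most 47.9 in any liver. Neb, the giant ruler protein of the thin filament, had the largest difference of all genes and read 0.9, 0.8 and 2.4 in liver and 99.1, 99.3 and 99.2 in muscle. Myot, a protein of the Z-disc, differed by -94.19 ± 1.42 points and Mybpc1, a myosin binding protein, by -77.03 ± 1.58 points.

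Ttn, which encodes titin, showed how 1 array could change a value. It read 99.9 in every muscle and 15.3, 85.3 and 15.5 in liver, and the difference was -61.15 ± 17.61 points (adjusted p = 0.0196) with all arrays and -84.5 points (adjusted p = 7.88e-07) without liver replicate 2. The call was lost without liver replicate 1 or 3 or without muscle replicate 1 or 3 (adjusted p from 0.0541 to 0.066). Myl1, Ckm and Sln, which also read highest in liver replicate 2, differed by -61.32 ± 8.18, -48.66 ± 6.45 and -61.58 ± 15.54 points with all arrays and by -72.1, -57.1 and -82.1 points without that array. Actc1, the cardiac actin that young skeletal muscle also uses, read 41.6, 99.2 and 37.7 in liver and rounded to 100 in all muscles. It was not called (-40.47 ± 15.01 points, adjusted p = 0.0508), but was called without liver replicate 2 (-60.3 points, adjusted p = 1.19e-06), where 46 of the 47 sarcomere genes were higher in muscle. Tpm3, a tropomyosin of many cell types, was the member called higher in liver (2.4 ± 0.36 points), and 2 of its 5 probe sets had that sign.

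Promoters of 3 genes at the top of the muscle arrays are shown beside those of liver for the motifs of muscle transcription factors. They too were picked by hand, and each holds some of the motifs marked. They belong to Acta1 (chr8:123894726-123895025, minus strand), to Pgam2, the muscle phosphoglycerate mutase (chr11:5803747-5804046, minus strand), and to Myh8, the neonatal myosin heavy chain (chr11:67276874-67277173, plus strand). They cover the same window as above, in RefSeq GRCm38.p6. Capitals mark CAGCTG, an E-box that myogenic factors can bind, the CArG box of serum response factor, the site of MEF2, and TATAAA as in the liver promoters.
Acta1: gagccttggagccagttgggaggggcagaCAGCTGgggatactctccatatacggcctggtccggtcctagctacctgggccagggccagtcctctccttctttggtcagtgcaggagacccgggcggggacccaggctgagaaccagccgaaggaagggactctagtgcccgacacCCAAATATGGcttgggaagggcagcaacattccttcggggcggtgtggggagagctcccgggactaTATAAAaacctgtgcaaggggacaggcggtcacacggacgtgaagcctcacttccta
Pgam2: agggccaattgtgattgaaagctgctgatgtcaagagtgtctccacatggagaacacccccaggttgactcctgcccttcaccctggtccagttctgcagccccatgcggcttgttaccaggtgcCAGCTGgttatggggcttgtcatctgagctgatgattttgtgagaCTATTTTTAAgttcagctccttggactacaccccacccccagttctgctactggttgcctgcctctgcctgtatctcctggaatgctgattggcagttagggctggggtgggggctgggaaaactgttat
Myh8: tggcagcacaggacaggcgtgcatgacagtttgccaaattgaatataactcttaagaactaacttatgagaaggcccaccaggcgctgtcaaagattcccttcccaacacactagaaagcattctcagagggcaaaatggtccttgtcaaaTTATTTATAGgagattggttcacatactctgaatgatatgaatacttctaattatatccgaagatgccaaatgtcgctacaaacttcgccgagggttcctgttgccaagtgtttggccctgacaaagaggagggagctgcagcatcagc
The Acta1 promoter holds CAGCTG 221 bases, the CArG box 73 bases and TATAAA 7 bases before the annotated start, each counted to its first base. Whether TATAAA acts as a TATA box at this distance was not tested. That of Pgam2 holds CAGCTG 125 bases and a MEF2 site 80 bases before the start, and that of Myh8 holds a MEF2 site 99 bases before it, in which TATAAA is read on the opposite strand. Among the liver promoters shown, that of Fabp1 also holds CAGCTG, which begins 18 bases after the start and was left in lower case. CAGCTG was present in 16.4% of the promoters of measured genes, in 22.6% of those of genes called at least 20 points higher in muscle and in 15.4% of those of genes called at least 20 points higher in liver. Among the muscle genes above the mean percentile of 95 it was present in 29.4% of 187 promoters. The MEF2 site was present in 2.1%, 3.78% and 1.76% of the promoters of measured genes, of muscle genes and of liver genes, and the CArG box in 1.35%, 2.3% and 1.34%. Above the mean percentile of 95, the CArG box was present in 3.21% of the promoters of muscle genes and 3.11% of those of liver genes, and the MEF2 site in 6.95% and 3.11%. TATAAA was present in 9.77%, 10.6% and 13.2% of the promoters of measured genes, of muscle genes and of liver genes. Its shares above the mean percentile of 95 were 18.7% for muscle genes and 22.3% for liver genes. None of these shares was tested.

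Embryonic, neonatal and adult forms of the contractile proteins were all present in newborn muscle. Of 9 measured developmental isoform genes, 8 were higher in muscle, and this count fell to 5 without liver replicate 3, without muscle replicate 1 or without muscle replicate 3. The calls that were lost were those of Myl4, Myl6b and Tnnt2, of which Myl4 and Tnnt2 read highest in liver replicate 2. Myl4 and Tnnt2 differed by -31.37 and -49.9 points with all arrays and by -45.3 and -70.3 points without liver replicate 2. Myh3, the embryonic myosin heavy chain, read 99.8 in every muscle and 9.1, 12.6 and 10.6 in liver. Myh8 read 99.9, 100 and 100 in muscle and 7.4, 10.4 and 11.7 in liver. Chrng, the fetal subunit of the acetylcholine receptor, read 86.3, 83.6 and 83.2 in muscle and 28.5, 28.3 and 29.7 in liver. All of these were separated from liver by more than 50 points.

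All 19 measured genes of adult fast and slow fibres were higher in muscle, with a median difference of -65.92 points. Myh7, the slow myosin heavy chain, read 98.2, 98.7 and 98.9 in muscle and 14.6, 23.8 and 14.5 in liver. Of the adult fast myosins, Myh1 read 93.4, 95.9 and 94.7 in muscle, Myh2 read 63.0, 76.6 and 79.8, and Myh4 read 82.7, 64.5 and 67.0, while all 3 read at most 6.1 in liver. The muscle arrays were thus close together for Myh3, Myh8, Myh1 and Myh7 and more spread for Myh2 and Myh4. Chrne, the adult subunit of the acetylcholine receptor, read 32.5, 36.2 and 29.6 in muscle and 27.2, 27.3 and 20.5 in liver, the smallest difference of this list (-7.77 ± 2.48 points, adjusted p = 0.0293), and its call was lost without liver replicate 3 or without muscle replicate 1 or 2 (adjusted p from 0.0654 to 0.0862). Atp2a1, the calcium pump of fast fibres, differed by -68.11 ± 1.53 points.

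**Figure D3:**
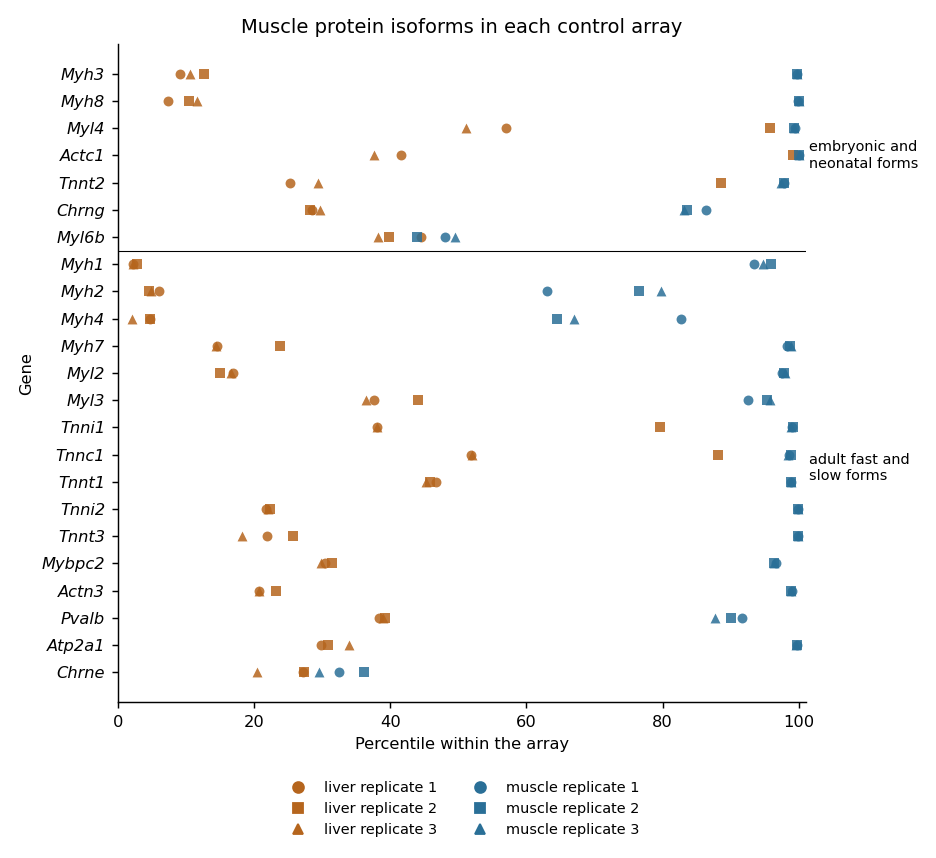
Percentile of 23 muscle isoform genes in each of the 6 control arrays, with embryonic and neonatal forms above the line and adult forms below it. Muscle values lie to the right of the liver values for most genes, while the tissues lie close together for Myl6b (liver 38.2 to 44.6, muscle 44 to 49.5) and Chrne (liver 20.5 to 27.3, muscle 29.6 to 36.2), and liver replicate 2 lies to the right of the other livers for Myl4, Actc1, Tnnt2, Tnni1 and Tnnc1.

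Genes that couple nerve impulses to contraction followed the sarcomere. Of 22 measured genes of excitation-contraction coupling, 20 were higher in muscle and none in liver, with a median difference of -62.6 points. Cacng1 and Cacna1s, subunits of the voltage sensor, differed by -80.37 ± 2.22 and -77.41 ± 1.72 points, Jph1, which joins the membranes, by -80.41 ± 1.86 points, and Ryr1, the calcium release channel, by -78.85 ± 2.37 points. Clcn1, the chloride channel of mature muscle, was not called and read 42.4, 43.8 and 41.2 in muscle and 44.7, 42.5 and 41.4 in liver. Of 14 measured genes of the neuromuscular junction, 13 were higher in muscle and 1 in liver. Chrna1, the receptor subunit common to fetal and adult receptors, read 93.4, 93.4 and 92.5 in muscle and 23.1, 20.8 and 21.1 in liver, and Rapsn, which clusters the receptor, differed by -55.08 ± 1.81 points. Erbb3, a growth factor receptor of the junction and of epithelia, was higher in liver (6.25 ± 1.8 points, adjusted p = 0.0194), and this call was lost without liver replicate 1 or 3 (adjusted p = 0.0633 and 0.0636). For Erbb3, 1 of 2 probe sets had that sign.

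Of 21 measured myogenic regulators, 19 were higher in muscle and none in liver, with a median difference of -46.71 points. Myf6, the factor of differentiated fibres, read 95.2, 93.0 and 91.3 in muscle and 2.7, 3.6 and 4.1 in liver. Myog, which drives differentiation, read 97.7, 96.2 and 96.8 in muscle and 22.0, 24 and 17.9 in liver. Myf5 and Myod1, the factors of myoblasts, read 69.6, 70.1 and 69.3 and 76.0, 75.4 and 77.0 in muscle, and Myf5 read at most 0.4 in liver. Pax7, the factor of muscle stem cells, read 53.7, 53.7 and 54.7 in muscle and 6.5, 11.5 and 4.0 in liver. Mymk, which fuses myoblasts, differed by -72.55 ± 1.78 points. Ankrd1, a stretch-responsive gene of heart and muscle, was not called (-39.17 ± 17.38 points, adjusted p = 0.0894) but was called without liver replicate 2 (-61.9 points, adjusted p = 2.55e-05). Outside the lists, Agtr2, an angiotensin receptor, Atp1b4, a muscle protein related to the sodium pump, Tceal7, Asb5, Klhl41 and Rab40b were among the 15 genes with the largest muscle excess, and Agtr2 read 96.6, 97.4 and 97 in muscle and 1.0, 0.3 and 1.5 in liver. Hspb1, a small heat shock protein, and Car3, a carbonic anhydrase, were at 99.8 or above in all muscles and differed by -33.58 ± 4.62 and -20.07 ± 3.15 points.

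Of 30 measured genes of muscle energy supply, 26 were higher in muscle and 1 in liver, with a median difference of -30.52 points. Ampd1, the AMP deaminase of muscle, read 98.2, 97.9 and 98.0 in muscle and 8.6, 9.4 and 7.4 in liver. Ckmt2, the mitochondrial creatine kinase of muscle, differed by -86.76 ± 4.71 points and Pygm, the muscle glycogen phosphorylase, by -65.25 ± 1.33 points. Eno3, the muscle enolase, read 99.9, 99.9 and 99.8 in muscle. Mb, which encodes myoglobin, read 65.7, 70.2 and 72.2 in muscle and 30, 35.6 and 29.5 in liver, and 1 of its 2 probe sets had that sign. Gbe1, the glycogen branching enzyme, was higher in liver (15.06 ± 2.03 points, adjusted p = 0.000533). Of 16 measured genes of the dystrophin complex and the fibre membrane, 15 were higher in muscle and none in liver. Dmd, which encodes dystrophin, differed by -37.75 ± 2.42 points and Cav3, the caveolin of muscle, by -80.12 ± 3.51 points.

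Enzymes that exist in a liver form and a second, mostly muscle form allowed both tissues to be described in the same terms. Of 29 listed pairs, 22 had both forms measured, and in 10 of them the first form was higher in liver while the second was higher in muscle. Glycogen phosphorylase was such a pair, with Pygl higher in liver by 21.73 ± 1.75 points and Pygm higher in muscle. Glucose transport was another, with Slc2a2 at 88.96 ± 1.47 and the insulin-responsive Slc2a4 at -35.98 ± 1.27 points. Fructose bisphosphatase (Fbp1 at 60.37 ± 2.13 and Fbp2 at -42.88 ± 2.25 points), glycogen synthase (Gys2 at 85.71 ± 2.24 and Gys1 at -14.12 ± 2.77 points) and fatty acid binding protein (Fabp1 at 79.75 ± 5.41 and Fabp3 at -59.06 ± 5.94 points) were split as well. The other split pairs were phosphofructokinase (Pfkl and Pfkm), phosphoglycerate mutase (Pgam1 and Pgam2), pyruvate kinase (Pklr and Pkm), phosphorylase kinase gamma (Phkg2 and Phkg1) and AMP deaminase (Ampd2 and Ampd1).

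Over the 22 pairs, the first form was higher in liver in 12 and in muscle in 3, and the second form was higher in muscle in 20 and in liver in 1. The pairs that were not split mostly joined a widely expressed first form, near the top in both tissues, with a muscle form that was higher in muscle. This was the case for actin (Actb at 0.03 ± 0.26 and Acta1 at -49.19 ± 1.57 points), for the translation factor pair Eef1a1 and Eef1a2 (-0.01 ± 0.26 and -32.77 ± 0.95 points), for adenylosuccinate synthase (Adss and Adssl1), for the adenine nucleotide carriers (Slc25a5 and Slc25a4) and for the 3 cytochrome oxidase pairs. Cox6a1, Cox7a2 and Cox8a were not called, while Cox6a2, Cox7a1 and Cox8b differed by -40.57 ± 3.97, -36.8 ± 4.64 and -56.07 ± 4.59 points. Ckb and Phka2 were higher in muscle, as were their partners Ckm and Phka1, and so was Atp2a2, although 3 of its 6 probe sets had that sign. The call for Atp2a2 held without liver replicate 2 and was lost without any other array (adjusted p from 0.0642 to 0.0894). For arginase both forms were higher in liver, Arg1 by 85.16 ± 2.29 and Arg2 by 21.86 ± 3.2 points. For acetyl-CoA carboxylase, Acaca was higher in liver (10.72 ± 3.11 points; adjusted p from 0.0512 to 0.0691 without liver replicate 1 or 3 or muscle replicate 1) and Acacb was not called (0.54 ± 2.73 points, adjusted p = 0.88). The number of split pairs was 14 with the deposited log2 values.

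**Figure D4:**
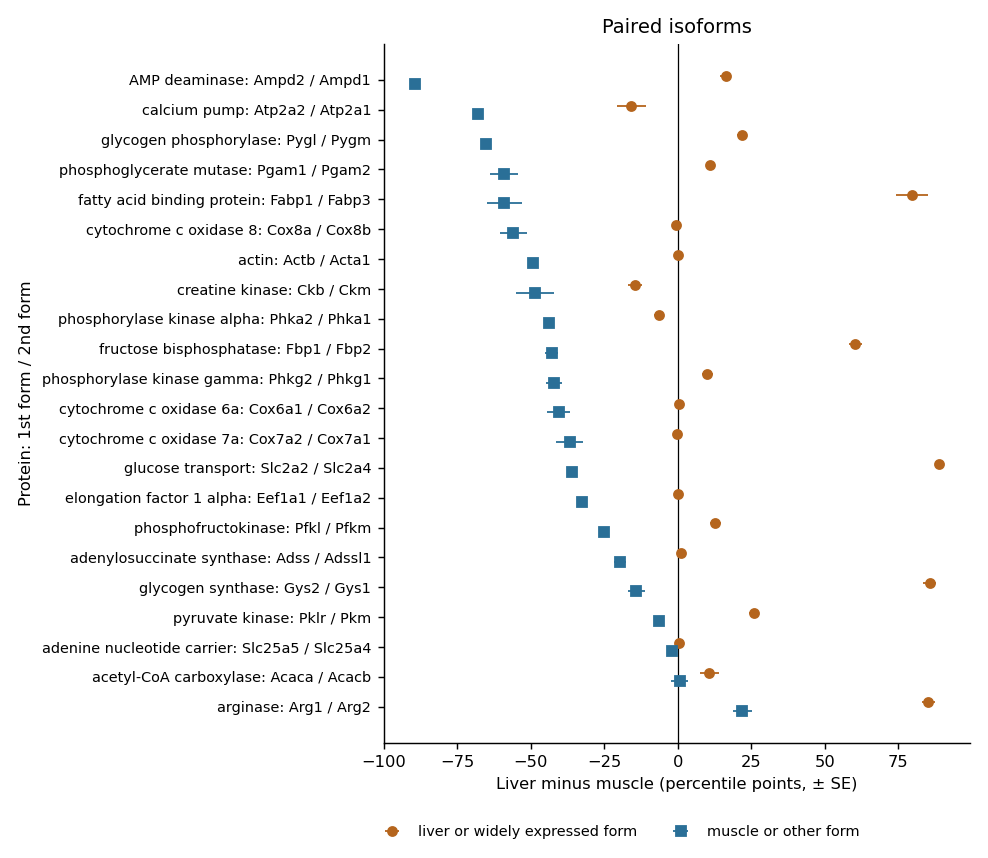
Difference between the tissues, liver minus muscle in percentile points with the standard error of the fit (3 against 3 arrays), for both forms of 22 protein pairs ordered by the difference of the second form. The second form lies left of 0 for 20 pairs and right of it for Acacb (0.54) and Arg2 (21.86), while the first form ranges from -15.88 for Atp2a2 to 88.96 for Slc2a2.

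The hindleg samples also carried the tissues around the fibres. Of 27 measured genes of collagens and matrix, 25 were higher in muscle and 1 in liver, with a median difference of -17.77 points. Col1a1, a chain of the main fibrous collagen, read 99.9, 99.9 and 99.8 in muscle and 85.8, 79.4 and 80.2 in liver, and Col12a1, of muscle and tendon sheaths, differed by -56.65 ± 1.72 points. Fn1, fibronectin, which hepatocytes also secrete into plasma, was higher in liver (0.81 ± 0.27 points, adjusted p = 0.0342), a call that was lost without any single array other than liver replicate 2 (adjusted p from 0.0577 to 0.0864). All 7 measured tendon genes were higher in muscle, with a median difference of -72.82 points. Tnmd, which encodes tenomodulin, read 97.1, 98.8 and 97.3 in muscle and 4.0, 9.4 and 8.9 in liver, and Kera, a proteoglycan of dense matrix, read 87.5, 95.6 and 87.3 in muscle and at most 0.8 in liver.

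Of 10 measured fat cell genes, 8 were higher in muscle and 1 in liver. Adipoq, the hormone adiponectin, read 96.4, 98.8 and 97.7 in muscle and 2.3, 5.6 and 2.6 in liver, whereas Ucp1, the uncoupling protein of brown fat, read 18.3, 24.4 and 17.7 in muscle and was not called. The member higher in liver was Pck1. Of 9 measured nerve sheath genes, 7 were higher in muscle and none in liver. Mbp, a myelin protein, read 73.4, 78.4 and 90.3 in muscle and 25.7, 24.5 and 23.3 in liver, but another of its probe sets, the one read highest when all 24 arrays are averaged, was higher in liver by 35.5 points. Mag, of mature myelin, read 44.0, 45.1 and 44.4 in muscle and was not called. The part of these other cell types in the muscle values was not tested.

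Cartilage, bone and skin genes varied more between the muscle arrays than any other list. Of 19 measured cartilage and bone genes, 12 were higher in muscle and 1 in liver, and the list mean was 40.19, 55.22 and 49.77 in the muscles and 27.52 to 28.13 in the livers. Col2a1, the collagen of cartilage, read 65.2, 91.1 and 94.7 in muscle and 30.9, 35.5 and 26.8 in liver. Ibsp, Mmp13 and Dmp1, a sialoprotein, a collagenase and a matrix protein of bone, read 87.5, 86.4 and 77.3 in muscle replicate 2 and between 13.3 and 37.2 in the other muscles. Ibsp differed by -50.28 points with all arrays and by -32.4 points without muscle replicate 2. Mmp13 was not called with all arrays and was called without muscle replicate 2 (-17.1 points, adjusted p = 0.028) or without muscle replicate 3 (-53.6 points, adjusted p = 0.0243). Alpl, an alkaline phosphatase of bone and of other organs, was higher in liver (21.13 ± 2.66 points).

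Of 11 measured skin genes, 9 were higher in muscle, and the muscle arrays differed widely. Krt1, a keratin of the outer epidermis, read 97.3, 28.7 and 96.2 in muscle and 23.2, 23.4 and 24.2 in liver, and Flg, which encodes filaggrin, read 84.2, 13.2 and 87.3 in muscle. In Lor, Krt10, Krt14 and Hrnr, too, muscle replicate 2 read lowest. Krt1, Flg and Lor were called with all arrays and without muscle replicate 2, and none of the 3 was called without any other single array (adjusted p from 0.0556 to 0.117). Krt14 lost its call without liver replicate 3 or muscle replicate 3, and Hrnr, not called with all arrays, was called without muscle replicate 2 (-65.0 points, adjusted p = 0.000157). The count for muscle was 9 without muscle replicate 2, 5 without muscle replicate 1, 4 without muscle replicate 3, and 5, 5 and 4 without liver replicate 1, 2 or 3. The range of a gene over the 3 muscles exceeded 30 points for 50 genes, and in 38 of these muscle replicate 2 read more than 30 points below both others, in 6 more than 30 points above them. Sarcomere genes did not share this pattern, and their list mean was 96.88, 96.62 and 96.68 in the muscles.

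The heart muscle genes were looked at because of their values in liver replicate 2, and the list was chosen after these had been seen. Nppa, the natriuretic peptide of the atria, read 19.7, 97.5 and 17.2 in liver and 6.2, 7.9 and 8.0 in muscle. Myl7, the myosin light chain of the atria, read 44.7, 97.7 and 42.8 in liver, and Myh6, the cardiac myosin heavy chain, read 12.2, 94.6 and 9.7. Nppb, Tnni3 and Ryr2 read 74.9, 65.4 and 47.1 in liver replicate 2 and at most 22.1 in the other livers. Of 17 measured heart genes, 4 were called higher in liver and 1 in muscle with all arrays, while 5 were higher in muscle without liver replicate 2 and 0 without any other single array. Nppa was higher in liver by 11.1 points (adjusted p = 0.00157) and Myl7 by 19.3 points (adjusted p = 0.000141) without liver replicate 2, while Myh6 was higher in muscle (-30.7 points, adjusted p = 0.000201). With all arrays, Nppa and Myh6 were not called (37.42 ± 19.89 and -2.83 ± 21.13 points). For Myh6 and Ryr2, the probe sets differed in sign. The range over the 3 livers exceeded 30 points for 46 genes, and in 23 of these liver replicate 2 read more than 30 points above both others. For the sarcomere list its mean of 44.34 lay above 30.76 and 30.74, while for the plasma proteins the 3 livers read 94.12, 93.78 and 94.23. The direction of the sarcomere genes, 46 of 47 higher in muscle, did not need this array.

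**Figure D5:**
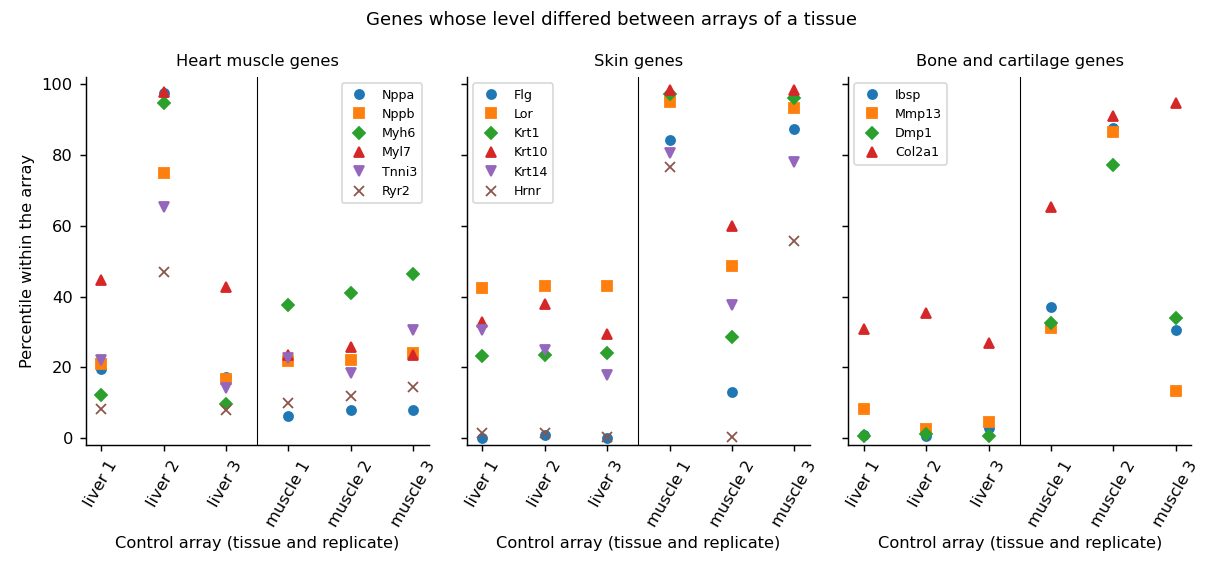
Percentile of 6 heart muscle, 6 skin and 4 bone and cartilage genes in each of the 6 control arrays, with the vertical line parting liver from muscle. Heart genes are high in liver replicate 2 (Nppa at 97.5), skin genes in muscle replicates 1 and 3 (Krt1 at 97.3 and 96.2), and Ibsp, Mmp13 and Dmp1 in muscle replicate 2 (87.5, 86.4 and 77.3).

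Growth factor genes divided between the tissues. Of 16 measured genes of the insulin-like growth factor axis, 9 were higher in muscle, 4 in liver and 3 were not called. Igf2, the main fetal growth factor of the family, rounded to 99.7 in all livers and to 100 in all muscles and was not called (-0.26 ± 0.26 points, adjusted p = 0.413). Igf1 read 98.5, 98.4 and 98.3 in muscle and 75.5, 66.8 and 77.8 in liver, a difference of -24.97 ± 2.59 points (adjusted p = 0.000134). The binding proteins went both ways. Igfbp1, a fasting-responsive inhibitor, rounded to 100 in all livers and read 17.3, 26 and 32.8 in muscle, and Igfbp2 was higher in liver by 8.55 ± 0.6 points. Igfbp5 and Igfbp6 were higher in muscle (-27.4 ± 6.95 and -32.19 ± 2.61 points), with liver values of Igfbp5 from 53.5 to 84.5. Igfals, which stabilises circulating growth factor, read 54.1, 54.6 and 61.1 in liver and 33.2, 33.8 and 34.4 in muscle, and Irs1, an adaptor of the receptors, differed by -20.44 ± 1.74 points.

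Of 19 measured imprinted and fetal growth genes, 14 were higher in muscle and 1 in liver, with a median difference of -3.496 points. Most were near the top in both tissues. Plagl1, a regulator of other imprinted genes, read 99.9 in every muscle and 98.2, 98.3 and 98.6 in liver, and Cdkn1c, an inhibitor of the cell cycle, read 99.7, 99.6 and 99.8 in muscle and 89.1, 88.6 and 87.5 in liver. Ndn, a growth suppressor, had the largest difference and read 99.2, 99.3 and 99.4 in muscle and 48.7, 51.3 and 55.7 in liver. The amino acid transporter Slc38a4 was higher in liver (5.98 ± 0.41 points, adjusted p = 1.55e-05). Of 11 measured genes of taurine and sulfur amino acids, 7 were higher in liver and 1 in muscle. Csad, which makes the precursor of taurine, read 96.9, 97.6 and 97.8 in liver and 73.7, 78.1 and 75.8 in muscle. Slc6a6, the taurine transporter, read 96.0, 93.9 and 88.1 in liver and 90.0, 87.2 and 90.1 in muscle and was not called (3.57 ± 1.97 points, adjusted p = 0.157), but was called without liver replicate 3 (5.86 points, adjusted p = 0.00673).

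Genes that every cell uses lay near the top of the scale in both tissues, where a percentile can differ by a few points at most. Of 38 measured cytosolic ribosomal protein genes, 2 were higher in liver and 3 in muscle, with a median difference of -0.06 points. Of 34 measured genes of mitochondrial complex I, the entry of the respiratory chain, 26 were higher in muscle and none in liver, but the median difference was -1.5 points, and the count was 8 with no variance trend in the fit, 0 in the low protein group, and 17 without liver replicate 1, without muscle replicate 1 or without muscle replicate 3. Ndufs4, an accessory subunit, had the largest difference, -9.07 ± 0.94 points. Of 20 measured proteasome genes, 11 were higher in muscle and none in liver, with a median difference of -1.443 points, and 4 were higher in muscle with no variance trend.

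The other diets gave the same comparison in other pups, 3 livers against 3 muscles for each diet. Those arrays are separate samples, though each was normalized together with the control arrays of its tissue. Of the 3038 genes called with at least 20 points in the controls, 3023 (99.5%) had the same sign under low protein, 3038 under normal protein with taurine and 3037 under low protein with taurine. The difference was called in the same direction for 2892 (95.2%), 2959 (97.4%) and 2978 (98%) of them, and it also reached 20 points for 2529, 2700 and 2679.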

How the data were processed

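RNA of 3 control livers and 3 control hindleg muscles was measured on Affymetrix arrays. The authors deposited log2 values per probe set, normalized separately for each tissue per the labels. The submitters' processing notes name RMA, R 2.7.0 and MAS5 without saying what each was used for. The medians were 5.36 to 5.37 in liver and 4.96 to 4.98 in muscle on that log2 scale. The number of arrays limits the precision.

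Of 45101 probe sets, those with a single gene symbol were kept, and for the 9010 of 18193 genes with more than 1, the probe set that read highest on average in these 6 arrays was taken. Values were ranked within each array as percentiles and tested with limma 3.58.1 in R 4.3.3 (lmFit, eBayes with a trend, Benjamini-Hochberg over all genes). The procedure was also run on simulated arrays built from liver values with few genes moved. That setting is unlike this comparison, so the run does not give the error rate here. An exact test of 3 against 3 arrays cannot go below p = 0.1.

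The comparison, the 38 gene lists and the pairs of forms were chosen with earlier results of these data known, and a list of heart genes was added after its values were seen. Of 880 list entries, 784 were measured and the other 96 were not analysed here. Genes were named by several rules. The first took the 15 largest differences in each direction among genes called without overlap between the tissues. Another took the 15 highest percentiles in a tissue among genes called at least 20 points higher there. Named from a list were its key members, up to 4 with the largest difference in its direction and up to 4 called against it. Genes that belonged to a pair of forms or varied most within a tissue were named as well. Clones and predicted genes were not named. The alternatives were other scales, no trend, other choices of probe set, a filter at percentile 40, the replicate number as a block, sex as a covariate, each array left out, and the other diets.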

Additional observations from a re-analysis of the deposited data

How the results depend on the processing

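With the deposited log2 values, 10263 genes were higher in liver (74.3% of calls) and 3557 in muscle, against 5547 and 5418 with percentiles; this scale keeps the separate normalization of the tissues. Over the other alternatives these counts stayed within 1.5 times their main values, and without 1 array they ranged from 4997 to 5262 and from 4872 to 5215. Counts of calls with at least 20 points ranged from 1412 to 1476 and from 1571 to 1608 without 1 array, and the number of split pairs stayed at 10. With the replicate number as a block, 5365 genes were higher in liver and 5245 in muscle. Deviations of same-numbered arrays correlated at 0.0809, 0.066 and 0.0207, and each array correlated best with its own number. By the level of Xist, same-numbered arrays of the 2 tissues also read as the same sex in every diet group. The labels do not say that a number marks the same pup. Pairing is therefore possible but not established, and the main fit was unpaired. The block brought Actc1 (adjusted p = 0.0359) and Hrnr (adjusted p = 0.046) past the threshold and lost Fn1, Gsta2 and Myl6b (adjusted p = 0.0952, 0.0519 and 0.0501).

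Some named genes changed direction. Averaging all probe sets turned Ank1 (10.2 points), Epcam (14.6 points), Gpt (1.23 points) and Tpm3 (-21.0 points), and choosing the probe set by its mean over 24 arrays turned Atp2a2 (4.12 points) and Mbp (35.5 points), so probe sets of these genes disagree. On the deposited log2 scale Chrne, Gsta2 and Ucp1 differed by 0.0255, 0.17 and 0.33. In the low protein group Cox8a, Erbb3, Gpt and Gsta2 differed by 1.58, -1.09, 26.9 and 9.59 points. Under low protein with taurine Gpt differed by 7.46 points, and under normal protein with taurine Nppb by -6.82 points. The cause was not tested.

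The counts of several lists depended on the setting. These were lists with small median differences and also the skin genes, whose median difference was -36.09 points. In the setting with muscle replicate 2 alone, chosen after the values were seen, the lone array was assumed to vary like the livers. Complex I genes higher in muscle numbered 26, but 8 without a variance trend, 9 with muscle replicate 2 alone, 0 under low protein and 14 under each diet with taurine. Proteasome genes higher in muscle numbered 11, but 4 without a trend, and ribosomal protein genes higher in muscle numbered 3, but 8 with deposited values, 13 with normal scores and 14 after joint quantile normalization. Fatty acid oxidation genes higher in liver numbered 18, but 6 with muscle replicate 2 alone. General endothelium genes higher in muscle numbered 10, but 5 under low protein, and fat cell genes 8, but 5, 3 and 4 under low protein, normal protein with taurine and low protein with taurine. Skin genes numbered 9, but 2 and 4 under the diets with taurine.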

Other observations

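The genes that set single control arrays apart were also read in the 18 arrays of the other diets. Heart muscle genes were low in all 9 other livers, where their list mean was 29.6 to 34.6 against 67.5 in control liver replicate 2, and Nppa, the natriuretic peptide of the atria, read 13.4 to 18.3 there. Ttn read 16.7 to 31.6 in those livers. Skin genes varied over the 9 other muscles, with list means from 31.3 to 95.8 and a median of 56.7, and Krt1 read from 30 to 99.8. Cartilage and bone genes varied there from 42.5 to 78.4, with Ibsp from 22.1 to 97.6. The sarcomere list read 91.2 to 97.1 in the same 9 muscles. Among plasma protein genes, Alb read 43.3 to 92.3 and Afp 26.6 to 74.6 in those muscles and rounded to 100 in all 9 livers.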
